A study of Homo sapiens with 4 samples.

Results

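BCL2, CCND1, HGF and SLFN11 are 4 genes that bear on how myeloma cells survive and respond to drugs, and they were taken by gene name from the 1232 genes of the deposited table. RNA sequencing had been carried out on AMO1, an established human multiple myeloma line, after lentivirus transduction with the PCDH vector. One group, EV, carried the empty vector and the other, PHF19_OE, overexpressed PHF19, and both were transduced and hold 2 libraries each. The labels do not say whether the cells were a pool or a clone, nor whether replicates are separate cultures, and what p-values reflect is the spread of these libraries, possibly a technical one. The table was limited to genes that reached 0.05 by unadjusted p in the authors' comparison of PHF19_OE with EV, so that a member had to differ to some degree to be in it.

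BCL2 protein sits on the outer mitochondrial membrane, where it holds the pore-forming proteins BAX and BAK in check and so blocks cell death, and it is the target of venetoclax. Cyclin D1, the product of CCND1, binds CDK4 and CDK6 and drives cells from G1 into S phase, and chromosomal translocation switches the gene on in a group of myelomas. HGF is a secreted growth factor that signals through the receptor tyrosine kinase MET and is made by many myeloma cells. SLFN11 is a nuclear protein that binds stressed replication forks and blocks them, and its loss makes cells resistant to DNA-damaging drugs. PHF19 is a Polycomb-like protein that associates with PRC2, the complex that places the repressive mark H3K27me3.

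The libraries held between 23835805 and 35258920 counted reads. The table gives each gene as counts, as normalized counts (counts divided by the authors' size factor for the library) and as FPKM (reads scaled to gene length and library total). PHF19 stood at 1842 and 4506 normalized counts in the EV libraries and at 9670 and 8777 in the PHF19_OE libraries, in replicate order, so that the groups did not overlap. Its adjusted p of 0.0897 in the authors' deposited table missed 0.05. The EV libraries differed in many listed genes. EV replicate 1 was over 2-fold above EV replicate 2 in 501 of the 1232 (40.7%) and over 2-fold below it in 190 (15.4%). Of the plasma cell identity genes, CD38, POU2AF1, CD79A and CD79B were listed, 4 of 15, and levels of the other 11 were not analysed here.

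All 4 members had a lower mean in PHF19_OE than in EV libraries, as did 63.6% of the listed genes. HGF and SLFN11 fell at an adjusted p of 0.05 in the authors' deposited table, where 1.07% of the 16881 genes tested fell and 1.74% were called in either direction. Of the listed genes 14.7% fell and 9.09% rose, 23.8% in all. CCND1 and BCL2 missed that threshold. The median deposited log2 fold change of the 4 was -1.94, beside -1.33 over all listed genes and -2.09 over the 784 listed genes that were lower. In 3 of the 4, CCND1, HGF and SLFN11, both PHF19_OE libraries lay below both EV libraries, which held for 54.3% of the listed genes. The same 3 had a PHF19_OE mean over 2-fold below each EV library taken singly, which held for 32.4%. BCL2 was over 2-fold below EV replicate 1 only, as were 26.8%. In RNA of whole cultures, fewer cells that express a gene and less RNA per cell cannot be told apart.

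**Figure D1:**
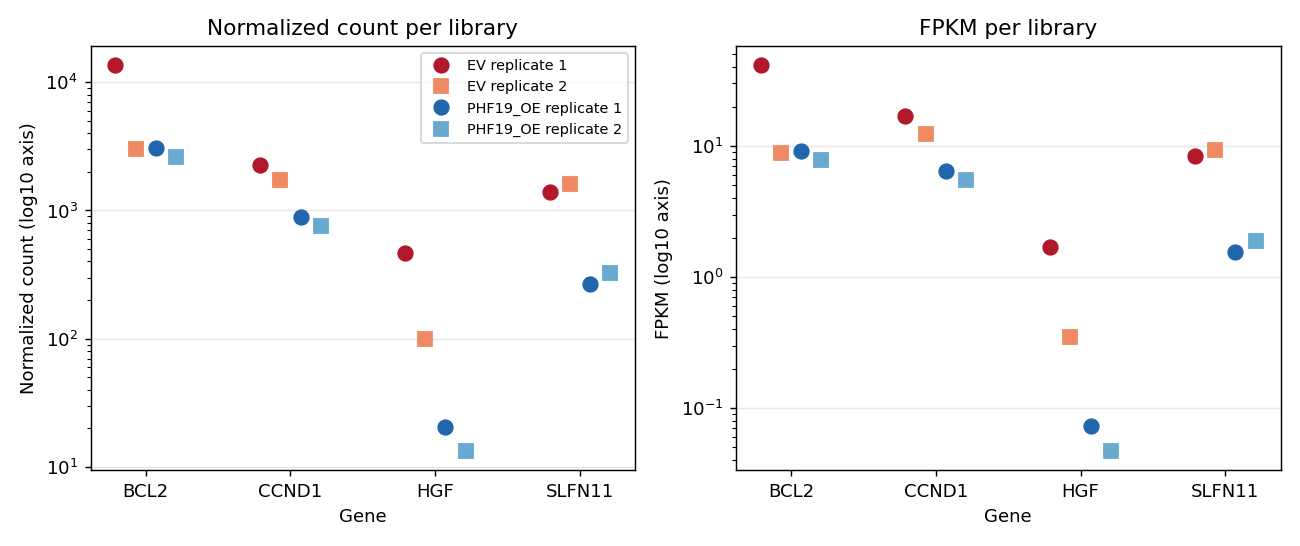
Normalized counts (left) and FPKM (right), both on log10 axes, of the 4 genes in each library, with circles for replicate 1 and squares for replicate 2 of EV (red, orange) and PHF19_OE (dark and light blue). SLFN11 shows 2 tight pairs far apart, whereas for BCL2 a single point, EV replicate 1 at 13591 normalized counts, stands above the other 3.

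SLFN11 had the most even EV pair of the 4 genes, at 1.14-fold between the libraries. It held 1775 and 1641 reads in the EV libraries and 222 and 319 in the PHF19_OE libraries, which are 1406, 1605, 267 and 326 normalized counts and 8.42, 9.31, 1.56 and 1.89 FPKM. Both EV libraries were thus high and both PHF19_OE libraries low, with a gap between the groups wider than the distance within either. The PHF19_OE libraries differed from each other by 1.22-fold. Means were 1505 ± 140 in EV and 297 ± 42.2 in PHF19_OE libraries (normalized counts, SD, n = 2 each), a 5.08-fold fall. On the log2 scale the mean difference was -2.35 with a standard error of 0.17 (n = 2 each).

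Taken against single EV libraries, the PHF19_OE mean of SLFN11 was 4.74-fold below EV replicate 1 and 5.41-fold below EV replicate 2. The 4 ratios of one EV to one PHF19_OE library ran from 4.31 to 6.02, and no choice of libraries brought the ratio near 1. The 95% counting interval of the first was 3.82 to 4.87 and of the last 5.23 to 6.95. Intervals here and below are exact, rest on the reads of the libraries compared and cover counting error only. The authors' deposited table gave SLFN11 -2.34 on the log2 scale with an adjusted p of 2.07e-06, rank 48 by p-value. DESeq2, run on the table's counts with the size factors of the authors, gave -2.34 with a standard error of 0.60 and an adjusted p of 0.0160 (10.9% of the listed genes passed). EdgeR's quasi-likelihood test gave the same -2.34, an unadjusted p of 0.00254 and an adjusted p of 0.662, so the call depends on the test. By that edgeR test 0 of the 1066 listed genes fitted passed, so the miss is not particular to SLFN11. Without PHF19_OE replicate 1 the edgeR log2 fold change was -2.20 for SLFN11 and -4.39 for HGF. Without PHF19_OE replicate 2 it was -2.50 for SLFN11 and -3.77 for HGF. For SLFN11 it was -2.43 without EV replicate 1 and -2.24 without EV replicate 2. Such fits leave 1 library in a group and take the spread from the other pair alone.

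The gene lies on the minus strand of chromosome 17, from 35350305 to 35373701 in hg38, with 13 annotated transcripts and 5982 exonic bases. It belongs to the Schlafen cluster, and no annotated gene overlaps it. Of the 50-base words in its transcripts, 9.69% also occur in transcripts of SLFN13 or SLFN12L, so that some reads could come from those paralogs. The share of reads that did was not measured. Of the 6 Schlafen genes, SLFN11 was the only one in the table, and the levels of the other 5 were not analysed here. Within 1000000 bases lie 42 other coding genes, of which RDM1 was listed, named here after its values were seen. RDM1 stood at 0 and 20.5 normalized counts in the EV libraries and at 85.3 and 62.4 in the PHF19_OE libraries, with an adjusted p of 0.598.

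Because Polycomb-like proteins bind CpG-rich DNA, bases from the promoter windows of SLFN11 and HGF, the members that fell, are shown with each CG in capitals. The SLFN11 stretch lies upstream of its outermost annotated start. The HGF stretch lies within the annotated gene, between alternative first exons. Both are read 5′ to 3′ on the minus strand, from RefSeq's promoter table (GRCh38.p14), at chr17:35373702-35373871 and chr7:81770199-81770290.
SLFN11: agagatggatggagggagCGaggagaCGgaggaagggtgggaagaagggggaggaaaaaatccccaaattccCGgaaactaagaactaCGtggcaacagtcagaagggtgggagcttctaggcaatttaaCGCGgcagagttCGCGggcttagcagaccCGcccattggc
HGF: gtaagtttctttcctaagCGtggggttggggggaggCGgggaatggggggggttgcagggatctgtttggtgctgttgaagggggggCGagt
The SLFN11 stretch holds 9 CG in 170 bases and the HGF stretch 3 in 92. Over the full RefSeq windows of 300 bases the counts were 18 for SLFN11, 7 for HGF and 31 for BCL2, against a median of 14 over 35116 promoters. At least as many CG were held by 44.5% of promoters for SLFN11, by 63.2% for HGF and by 20.7% for BCL2, and 96.0% hold at least 1 (CG reads the same on both strands). Of the 3 windows, that of BCL2 held the most CG, and RefSeq's promoters had no entry for CCND1. Whether CG content bears on the values of the members was not tested. These counts describe sequence, and no measurement of PHF19 binding or of H3K27me3 was used here.

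HGF showed the greatest fall of the 4, from a level that differed widely between the EV libraries. It held 584 and 101 reads in the EV libraries and 17 and 13 in the PHF19_OE libraries. Those are 463, 98.8, 20.4 and 13.3 normalized counts and 1.69, 0.349, 0.0727 and 0.0470 FPKM. Both PHF19_OE libraries were below both EV libraries, but EV replicate 1 was itself 4.68-fold above EV replicate 2. Means were 281 ± 257 in EV and 16.9 ± 5.04 in PHF19_OE libraries (normalized counts, SD, n = 2 each), a 16.6-fold fall. On the log2 scale the mean difference was -3.70 with a standard error of 1.16 (n = 2 each).

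The PHF19_OE mean of HGF was 27.4-fold below EV replicate 1, with a 95% counting interval of 19.3 to 41.7 on pooled PHF19_OE reads, and 5.86-fold below EV replicate 2, with 3.93 to 9.28. The intervals do not meet, so the size of the fall depends on the EV library used. Between the PHF19_OE libraries the ratio of 1.54 had an interval of 0.702 to 3.44, which includes 1: a difference between them was not detectable at this depth. For HGF the authors' deposited table gave -4.06 on the log2 scale, adjusted p = 0.000129. DESeq2 with the authors' size factors gave -4.06 with a standard error of 0.99 and an adjusted p of 0.00792. EdgeR's quasi-likelihood test, by which 0 of 1066 listed genes passed, gave an unadjusted p of 0.00978 and an adjusted p of 0.932. In edgeR fits of 3 libraries the log2 fold change was -2.55 without EV replicate 1 and -4.78 without EV replicate 2. A fit with a lone EV library assumes that it varies like the PHF19_OE pair, which the EV libraries of HGF did not.

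HGF lies on the minus strand of chromosome 7, from 81699008 to 81770438, with 12 annotated transcripts, no overlapping gene and no 50-base word shared with another gene's transcripts. Of the 3 other coding genes within 1000000 bases, PCLO, which encodes a large scaffold protein of synapses, was listed. PCLO stood at 154 and 29.3 normalized counts in the EV and at 19.2 and 5.12 in the PHF19_OE libraries, with EV replicate 1 highest, and missed the threshold (adjusted p = 0.227).

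Of 20 genes of the HGF and MET pathway, 3 were in the table, and HGF alone passed. MET, the receptor, stood at 590 and 273 normalized counts in the EV libraries and at 92.5 and 223 in the PHF19_OE libraries (adjusted p = 0.447). The PHF19_OE libraries were lower for MET, but PHF19_OE replicate 2 lay close to EV replicate 2. F12, which encodes coagulation factor XII, a protease able to activate the HGF precursor, stood at 82.4 and 94.8 in EV and at 233 and 184 in PHF19_OE libraries (adjusted p = 0.481). The other protease genes HGFAC, ST14 and HPN, the inhibitor genes SPINT1 and SPINT2 and the co-receptor gene SDC1 were not in the table.

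**Figure D2:**
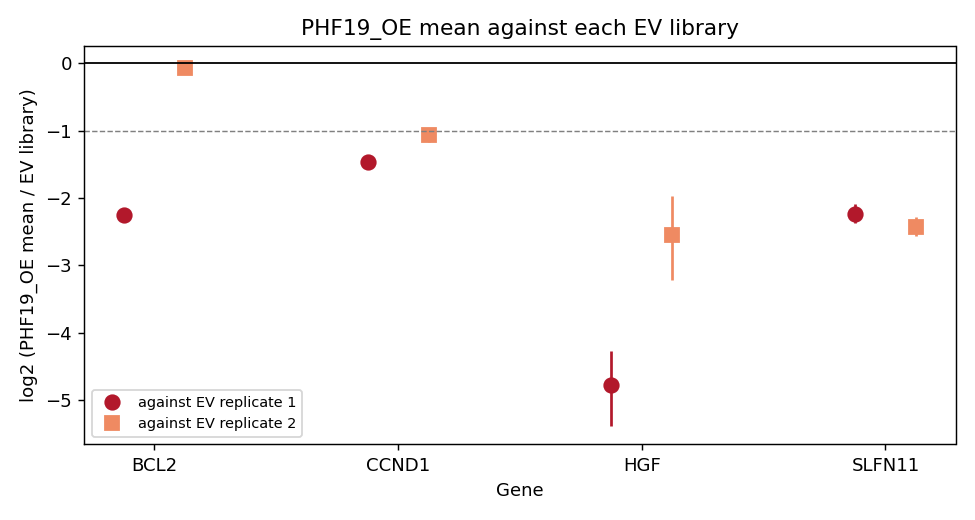
Log2 ratio of the PHF19_OE mean to EV replicate 1 (red circles) and to EV replicate 2 (orange squares) on normalized counts, with 95% counting intervals as vertical lines (some shorter than the symbol); the solid line marks no difference and the dashed line a 2-fold lower level. For SLFN11 both lie near each other, at 4.74-fold and 5.41-fold lower, while for BCL2 the second lies at 1.05-fold lower.

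CCND1 was lower by a smaller step that was seen against each EV library. It held 2883 and 1763 reads in the EV libraries and 739 and 746 in the PHF19_OE libraries, or 2284, 1724, 888 and 763 normalized counts. In FPKM these were 16.9, 12.4, 6.42 and 5.49. The groups did not overlap, and the lower EV library stood 1.94-fold above the higher PHF19_OE library. Means were 2004 ± 396 in EV and 826 ± 88.1 in PHF19_OE libraries (SD, n = 2 each), a 2.43-fold difference. The mean log2 difference was -1.27 with a standard error of 0.23 (n = 2 each).

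The PHF19_OE mean of CCND1 was 2.77-fold below EV replicate 1 (95% counting interval 2.61 to 2.96) and 2.09-fold below EV replicate 2 (1.96 to 2.25). By the authors' deposited table CCND1 was at -1.28 on the log2 scale, and its p of 0.00131 became 0.0693 once adjusted, which missed 0.05. EdgeR's quasi-likelihood test and DESeq2 with the authors' size factors each gave an adjusted p of 1 over all 4 libraries, with unadjusted p of 0.0275 and 0.0316. In edgeR fits the log2 fold change of CCND1 was -1.06 without EV replicate 1 and -1.47 without EV replicate 2. Those fits take the spread from the PHF19_OE pair alone.

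CCND1 lies on the plus strand of chromosome 11, from 69641087 to 69654474, with 4830 exonic bases. Its end overlaps LTO1, a coding gene on the opposite strand that starts at 69653076 in genome order. Of the 50-base words in CCND1 transcripts, 8.34% occur in LTO1 transcripts when both strands are read. Whether the counting used strand is not given in the sources used here, so reads of the overlap cannot be assigned with certainty. LTO1 was not in the table, nor was any of the 19 other coding genes within 1000000 bases.

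CCND1 was the only listed gene among 19 D-type cyclins and G1 regulators. CCND2, CCND3, CDK4, CDK6 and the CDK inhibitor genes were not in the table. Among myeloma translocation targets, MYCN, at 29.3 and 116 in EV and 25.2 and 11.3 in PHF19_OE libraries, was higher in EV replicate 2 and did not pass (adjusted p = 0.688).

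BCL2 was high in 1 library. It held 17159 reads in EV replicate 1, 3070 in EV replicate 2 and 2570 in each PHF19_OE library. Normalized counts were 13591 and 3002 in the EV and 3088 and 2630 in the PHF19_OE libraries, and FPKM were 41.4, 8.86, 9.16 and 7.76. EV replicate 2 thus lay between the PHF19_OE libraries, and the groups overlapped, while 90.5% of the listed genes had groups that did not overlap in one direction or the other. Group means were 8297 ± 7488 and 2859 ± 324 (SD, n = 2 each), a 2.90-fold difference within the EV spread. The mean log2 difference was -1.16 with a standard error of 1.10 (n = 2 each).

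The PHF19_OE mean of BCL2 was 4.75-fold below EV replicate 1, with a 95% counting interval of 4.64 to 4.94, and 1.05-fold below EV replicate 2, with 1.01 to 1.11. EV replicate 1 exceeded EV replicate 2 by 4.53-fold (4.36 to 4.71), nearly as much as it exceeded the PHF19_OE libraries. The authors' deposited table has BCL2 at -1.54 on the log2 scale, with a p of 0.0139 that was 0.353 once adjusted. Over all 4 libraries edgeR's quasi-likelihood test gave a log2 fold change of -1.54 with an adjusted p of 1. It gave -0.070 without EV replicate 1 and -2.25 without EV replicate 2. In those fits the spread of the PHF19_OE pair stood in for that of EV.

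BCL2 spans 63123346 to 63320128 on the minus strand of chromosome 18, with 4 annotated transcripts and 11765 exonic bases, the longest of the 4 members. A sense intronic and an antisense transcript lie within it, and its transcripts share no 50-base word with those of other genes. None of the 18 other coding genes within 1000000 bases was listed. Of 17 genes of the BCL2 family BCL2 alone was in the table. The survival genes MCL1 and BCL2L1, the pore-formers BAX and BAK1 and the BH3-only genes BCL2L11, PMAIP1 and BBC3 were not, and their levels were not analysed here.

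The library in which BCL2 and HGF were highest, EV replicate 1, was also high in genes that respond quickly to stress or handling. Of 23 immediate early and heat shock genes 10 were listed, and in all 10 it exceeded EV replicate 2 over 2-fold. It did so in 40.7% of all listed genes. Their summed normalized counts were 48139 and 4988 in the EV libraries and 5702 and 4133 in the PHF19_OE libraries, with a median deposited log2 fold change of -4.08. EGR2, NR4A3 and HSPA6 fell and the other 7 did not pass, while of all listed genes 14.7% fell and 9.09% rose. Of 31 interferon-stimulated gene names 9 were listed, 3 fell (MX1, MX2 and EPSTI1) and OAS3 rose, and 7 of the 9 were over 2-fold higher in EV replicate 1. SLFN11, itself inducible by interferon in human cells, stood at 1406 and 1605 normalized counts in the EV libraries. What part these stress and interferon genes had in the values of BCL2, HGF, SLFN11 and CCND1 was not tested.

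Markers of other cell types gave small values that also leaned to EV replicate 1. Summed normalized counts of the listed T and NK cell markers (CD3E and TRAC, 2 of 9) were 85.5 and 40.1 in the EV and 2.40 and 5.12 in the PHF19_OE libraries. ITGAM, 1 of 8 myeloid markers, stood at 94.3 and 15.6 in EV libraries and had 0 reads in both PHF19_OE libraries. CDH1, 1 of 8 endothelial and epithelial markers, stood at 99.0 and 9.78 against 1.20 and 0. None of 8 fibroblast and stromal markers was listed, and their levels were not analysed here, although fibroblasts are a known source of HGF. The part of such cells in the values of the 4 members was not tested.

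Levels per gene length put the 4 genes in different orders. In EV replicate 1 the FPKM ran from BCL2 through CCND1 and SLFN11 to HGF. In EV replicate 2 CCND1 led, with SLFN11 and BCL2 next at 9.31 and 8.86 FPKM. In both PHF19_OE libraries the order was again BCL2, CCND1, SLFN11 and HGF. HGF was lowest in every library, and BCL2 and CCND1 in PHF19_OE libraries (8.46 ± 0.994 and 5.95 ± 0.660 FPKM, SD, n = 2 each) were separated by more than their spread. In EV libraries BCL2 (25.1 ± 23.0 FPKM, SD, n = 2) could not be ordered against CCND1 (14.7 ± 3.21) or SLFN11 (8.86 ± 0.633).

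**Figure D3:**
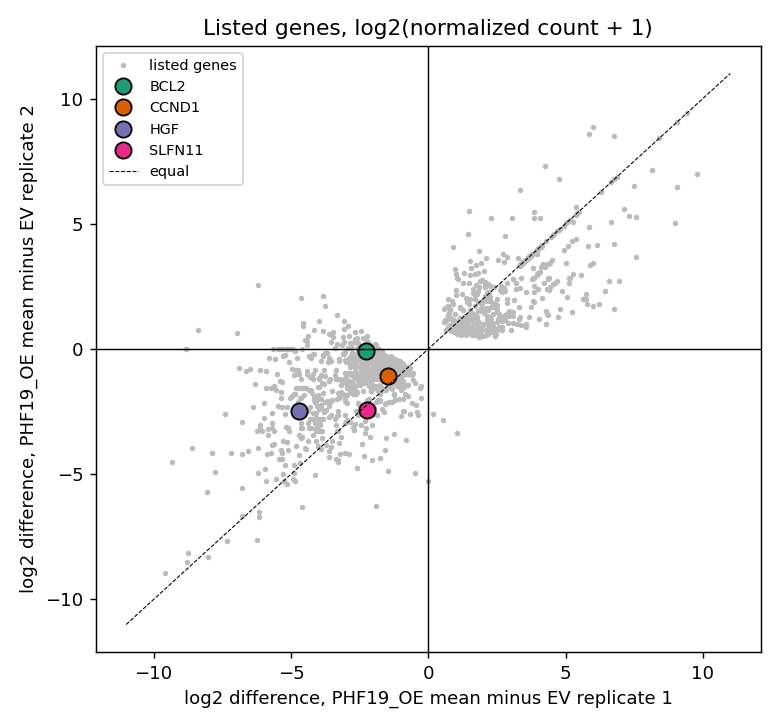
Difference of the PHF19_OE mean from EV replicate 1 (horizontal) and from EV replicate 2 (vertical) in log2 of the normalized count plus 1, for all 1232 listed genes (grey) and the 4 members (coloured); the dashed line marks equal differences. SLFN11 lies by the line, CCND1 near it, HGF above it at a far lower level against EV replicate 1, and BCL2 close to 0 on the vertical axis.

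The patterns over the 4 libraries were compared with those of the 808 listed coding genes with a mean of at least 50 normalized counts, by the Euclidean distance between profiles of log2 of the normalized count plus 1, each centred on its own mean. For BCL2 the nearest were RASGEF1B, VAMP2, KDM5B and ZC3H6, at distances of 0.089 to 0.16 beside a median of 2.01 over all eligible genes. VAMP2, a vesicle fusion protein gene, stood at 3033 and 730 normalized counts in the EV libraries and at 773 and 613 in the PHF19_OE libraries. KDM5B, which encodes a histone H3K4 demethylase, stood at 533 and 106 against 111 and 101. Like BCL2, they were high in EV replicate 1 alone, and none of the 4 passed the threshold.

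CCND1 was followed most closely by RAB28, SGPP2, UBE2F and ERMARD, at distances of 0.072 to 0.13 (median 1.86). RAB28, a small GTPase gene, stood at 2288 and 1774 in EV and at 943 and 761 in PHF19_OE libraries and missed the threshold too (adjusted p = 0.0849). SLFN11 was followed by EMP1, MAMDC2, CAPN14 and EVL at 0.19 to 0.30 (median 2.19). EMP1, which encodes a membrane protein of the PMP22 family, stood at 617 and 816 against 125 and 168. EMP1, MAMDC2 and EVL fell, and CAPN14 did not pass (adjusted p = 0.0887).

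RAB27B, SEMA5A and ENPP2, among the genes nearest to HGF, lay farther off, at 0.55 to 0.71 (median 2.88), and all 3 fell. RAB27B, a GTPase gene of vesicle secretion, stood at 150.5 and 37.2 in EV and at 10.8 and 5.12 in PHF19_OE libraries. ENPP2, the gene of the lysophospholipase autotaxin, stood at 173 and 39.1 against 13.2 and 4.09. Among the 4 members themselves the least distance was 1.21, between CCND1 and SLFN11. The genes named beside each member were picked as its nearest, so their smaller distances follow from that choice.

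**Figure D4:**
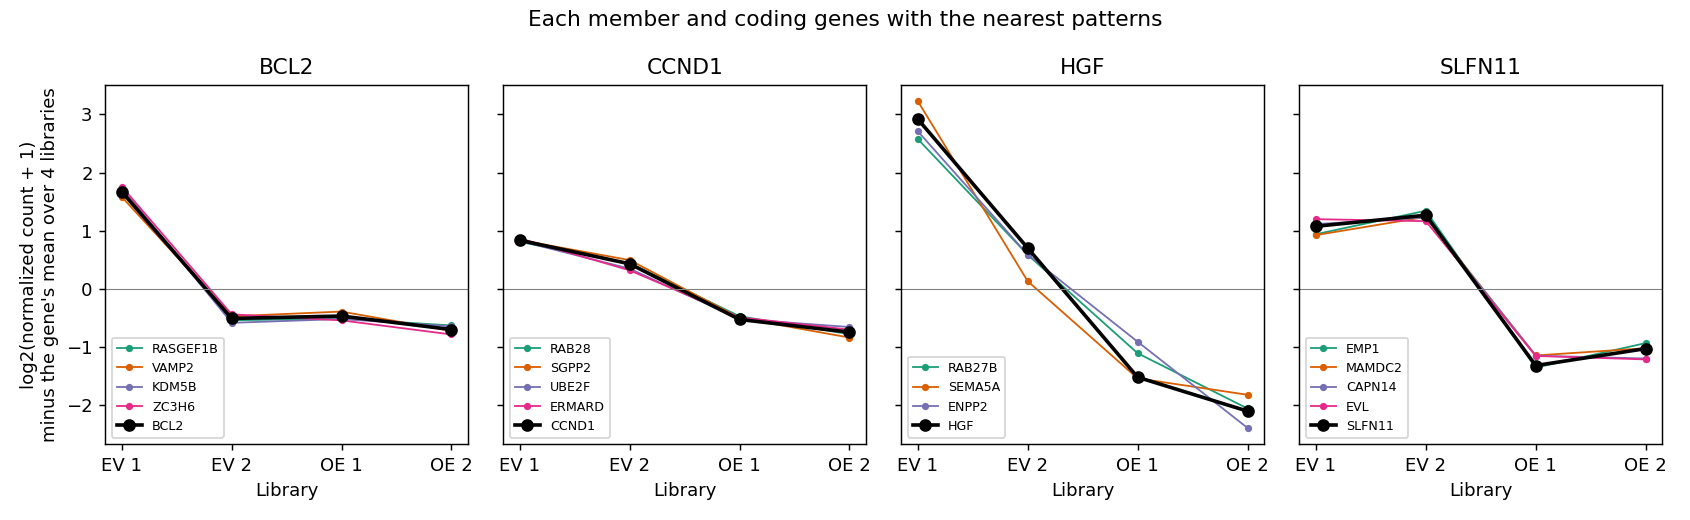
Log2 of the normalized count plus 1, minus the gene's mean over the 4 libraries, for each member (black) and listed coding genes among the 4 with the nearest pattern (coloured; 3 shown for HGF), with libraries on the horizontal axis. BCL2 and its neighbours are high in EV replicate 1 alone, SLFN11 and its neighbours in both EV libraries.

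Few other genes of drug response were listed. Of 25 myeloma drug targets and response genes 4 were in the table, with a median deposited log2 fold change of -1.50, and CD38 fell. CD38, the target of daratumumab, stood at 3228 and 2138 normalized counts in the EV libraries and at 901 and 660 in the PHF19_OE libraries, 2.74-fold below the lower EV library. GPRC5D and FCRL5, surface targets of bispecific antibodies, followed the BCL2 pattern: GPRC5D stood at 4649 and 1101 against 1354 and 1110, and FCRL5 at 310.5 and 38.1 against 49.3 and 49.1. For both, EV replicate 2 was below the PHF19_OE libraries, and neither passed. IKZF3, a transcription factor gene whose product is degraded under lenalidomide, was the 1 of 4 that was higher, at 9452 and 8786 against 13682 and 16106 (adjusted p = 0.696).

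Of 25 genes of replication stress and DNA damage response, the processes in which SLFN11 acts, MGMT alone was listed. MGMT, a DNA repair methyltransferase gene, stood at 383 and 195 in the EV and 150 and 83.9 in the PHF19_OE libraries and did not pass (adjusted p = 0.549). Of 27 niche cytokines and receptors, 7 were listed with a median of -1.29. DKK1, a secreted WNT inhibitor that myeloma cells release into bone, fell from 126 and 81.2 to 13.2 and 10.2 (adjusted p = 0.0103). WNT5A, a secreted WNT ligand, rose from 57.8 and 242 to 1031 and 1436 (adjusted p = 0.000330). CCR1, a chemokine receptor gene, stood at 7567 and 6873 against 3351 and 2895 and just missed (adjusted p = 0.0506), a pattern of 2 even groups like that of CCND1. The other 4, TNFSF13, FGF2, CCR2 and NRG1, did not pass either.

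**Figure D5:**
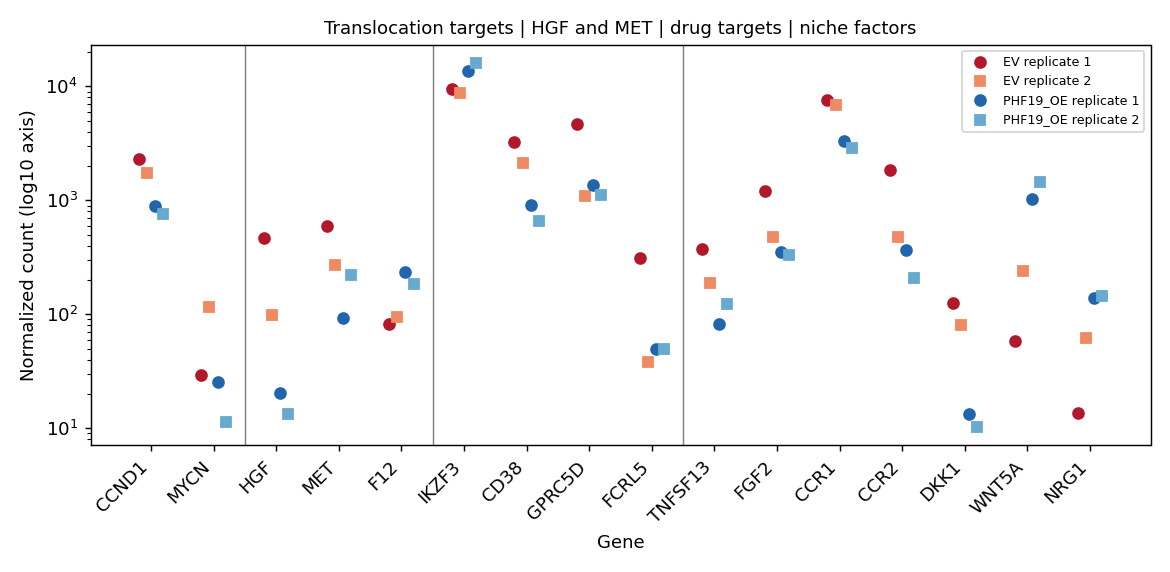
Normalized counts on a log10 axis of CCND1 and MYCN (translocation targets) and of the listed HGF and MET pathway genes, drug targets and niche factors in each library, with symbols as in the plot of the 4 members by library and grey lines between the gene groups. DKK1, CD38 and CCR1 are among the genes whose groups do not overlap, which held for 90.5% of all listed genes in either direction. GPRC5D and FCRL5 are high in EV replicate 1 alone.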

How the data were processed

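Per the labels' protocols, RNA of AMO1 cells was extracted with a column kit and made into libraries with a SMARTER mRNA-Seq kit. The submitters' processing notes name hg38 as the build. The aligner, counter, strand setting and statistical test were not given in the sources used here. Per the file headers, the deposited table holds raw read counts, a normalized signal (counts divided by 1 size factor per library), FPKM, the log2 fold change and its p-value, unadjusted and adjusted, per gene. Library totals were computed from deposited FPKM values, lengths and counts.

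The highest p-value in the table was 0.0499, so it holds selected genes. For that reason the authors' adjusted p at 0.05 is the main call. Benjamini-Hochberg adjustment over 16881 genes returned 1208 deposited values (relative tolerance 1e-06), and the other 24 were 1. EdgeR 4.0.16 (quasi-likelihood, R 4.3.3, filterByExpr) and DESeq2 1.42.0 were run on the listed counts, so they take the spread from selected genes, and their p-values were adjusted over 16881. Both were also run on simulated counts with known changes and the same fixed spread for all genes. That run checks the code and not how the tests do on these libraries. An exact permutation test of 2 against 2 cannot reach 0.05 and was not used.

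Lists name genes in the table, up to 4 past 0.05 each, and nearest patterns 4 per member. Some genes that meet these rules are not reported here. Exceptions named after their values were seen are the neighbours RDM1 and PCLO. Members and lists were chosen with earlier results of these data known. NSD2 and WHSC1, and DDX58 and RIGI, name the same genes and are counted separately. Coordinates equal those of GENCODE 29, which gave exons, overlaps and transcript words. Alternatives were other scalings, no filter, a replicate block, FPKM and leaving out each library.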

Additional observations from a re-analysis of the deposited data

How the results depend on the processing

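All 4 members were lower in PHF19_OE in each of the 44 values computed under the alternatives. These values reuse the same 4 libraries for genes already lower in the authors' comparison, so their shared sign is not independent support. Of the 44, 27 stayed on the same side of the test's threshold or within the spread. Most of the 27 were for BCL2 and CCND1, which had not passed before. In 14 of the 44, HGF or SLFN11 no longer passed, some of them in fits with a lone library in a group. The remaining 3, for BCL2 and CCND1, crossed the threshold the other way, each in a fit with a lone EV library. HGF had a log2 fold change of -4.05 by edgeR's quasi-likelihood test with the authors' size factors, with or without the filter on low counts, -3.33 with TMM factors from the listed genes and -2.87 by DESeq2 with size factors from the listed genes, and did not pass in any of these. SLFN11 was at -2.34, -1.82 and -1.50 under the same settings and did not pass either. TMM moved the median of the listed genes by 0.61 and DESeq2's size factors by 1.03. Every member moved up with the median, BCL2 to -0.34 and CCND1 to -0.36 under the latter. Both scalings were estimated from genes picked for a difference, 63.6% of them lower in PHF19_OE. They pull the typical listed gene toward no difference. The smaller folds thus follow at least in part from that choice of genes and cannot decide about the members. Leaving out 1 library at a time gave log2 fold changes of -2.25 to -0.070 for BCL2, -1.47 to -1.06 for CCND1, -4.78 to -2.55 for HGF and -2.50 to -2.20 for SLFN11. Each such fit leaves 1 library in a group, so the spread comes from the other group alone.

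Past an adjusted p of 0.05 were 293 genes in the authors' deposited table, 0 by edgeR with either scaling or without the filter (522 at an unadjusted p under 0.05 with the authors' size factors), 134 by DESeq2 with the authors' size factors and 161 with its own, of which 35 were lower. Leaving out 1 library gave 10 to 842. Replicate numbers in the labels are shared by the groups, but nothing says that they pair the libraries. Differences between replicates 1 and 2 correlated with r = 0.25 across 1105 genes, which are not independent replicates. With the replicate block edgeR called 109 genes, gave HGF an adjusted p of 0.0345 and left SLFN11 at -2.35 and an adjusted p of 0.0654. The cause of these differences was not tested. With 17 and 13 reads in the PHF19_OE libraries, depth also limits the fold of HGF.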
